A study of Mus musculus with 8 samples.

Results

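The laminin chains and integrin subunits of mouse skeletal muscle were examined after knockdown of MYTHO, the gene listed as *D230025D16Rik*. The members were 10 laminin and 25 integrin genes, given by name, and were found by matching these names to the gene symbols of the deposited array table. All 35 genes were present, each with 1 probe set, among 22206 probe sets in all. The probe set of *Itga1* also names *Pelo*, which lies within the *Itga1* gene, so its signal cannot be given to *Itga1* alone. The probe set of *Lamb3* was marked as not expressed in both groups, which left 34 members with signal.

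The samples were gastrocnemius (GAS) muscles of male C57/Bl6j mice that received an adeno-associated virus (AAV) of serotype 1 at about 10 weeks of age. In the MYTHO-KD group (n = 4 muscles) the virus carried an sh-RNA against MYTHO. In the scramble group (n = 4 muscles) it carried a scrambled sh-RNA and was injected into the opposite leg. Muscles were taken 3 months after injection, at 22 weeks of age. The sh-RNA was driven by the U6 promoter, which is not restricted to a cell type, and the muscle was profiled whole. The scramble muscles therefore share the virus and the injection with the MYTHO-KD muscles, and an uninjected group was not analysed here. Expression was measured on Clariom S arrays, which read 1 summarised log2 signal per gene.

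The table gives, for each group, an average and a standard deviation (SD) of the log2 signal over 4 arrays and no value for a single array. Values are therefore written as average ± SD. Each difference is MYTHO-KD minus scramble on the log2 scale, with its 95% interval from limma's moderated test rebuilt from these averages and SDs. Adjusted p-values are Benjamini-Hochberg values over all 22206 probe sets. A p under 0.05 is unadjusted unless it is called adjusted, and corresponds to an interval that excludes 0. Signals of different probe sets are not on a common scale and are compared only between groups, within a probe set. *D230025D16Rik* itself averaged 10.02 ± 0.37 in scramble and 7.71 ± 0.66 in MYTHO-KD muscle. Its difference was -2.31 (95% interval -2.97 to -1.65, adjusted p = 0.0138 by limma), which left 20.2% of the scramble signal. The adjusted call was lost without moderation of the variance (0.173), with unequal variances (0.363) and with the standard error widened by 20% (0.0804), in a range of 0.00249 to 0.363 over all settings. All 12 muscle fibre markers were marked as expressed in both groups.

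Laminins are secreted cross-shaped trimers of an α, a β and a γ chain, and they form the first layer of the basement membrane that wraps each muscle fibre. Integrins are αβ dimers that span the plasma membrane, bind laminin, collagen or fibronectin outside the cell, and tie to the actin cytoskeleton inside it. In muscle the laminin with the α2 chain is held by dystroglycan and by the α7β1 integrin. Mutations of *LAMA2* cause a congenital muscular dystrophy and mutations of *ITGA7* a congenital myopathy.

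No laminin or integrin passed the adjusted threshold of 0.05, and none passed a 2-fold difference with p under 0.05. The adjusted threshold was passed by 0.18% of all probe sets in the higher and 0.0946% in the lower direction. The 2-fold rule was passed by 0.86% and 0.257%. At an unadjusted p under 0.05, 6 of 35 members (17.1%) were higher in MYTHO-KD muscle, against 6.48% of all probe sets. In the lower direction the count was 2 of 35 (5.71%), against 5.52% of all probe sets. The 6 higher members were *Lama2*, *Lamb1*, *Lamc1*, *Itga5*, *Itgam* and *Itgb1*, and the 2 lower ones were *Itgae* and *Itgb6*. Of these, *Lama2*, *Lamb1*, *Lamc1* and *Itga5* differed by at least 1.5-fold (3.54% of all probe sets were higher by that rule, and 2.25% lower), while neither lower member did. Over the 34 members with signal, 21 averages were higher and 13 lower, with a median difference of 0.16. Of all probe sets, whether or not marked as expressed, 46.9% were higher and 51.4% lower, and the median over all of them was -0.01. The interval around a member's difference reached between 0.34 and 0.64 to each side (median 0.48), so a smaller difference than this could not be told from 0.

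**Figure D1:**
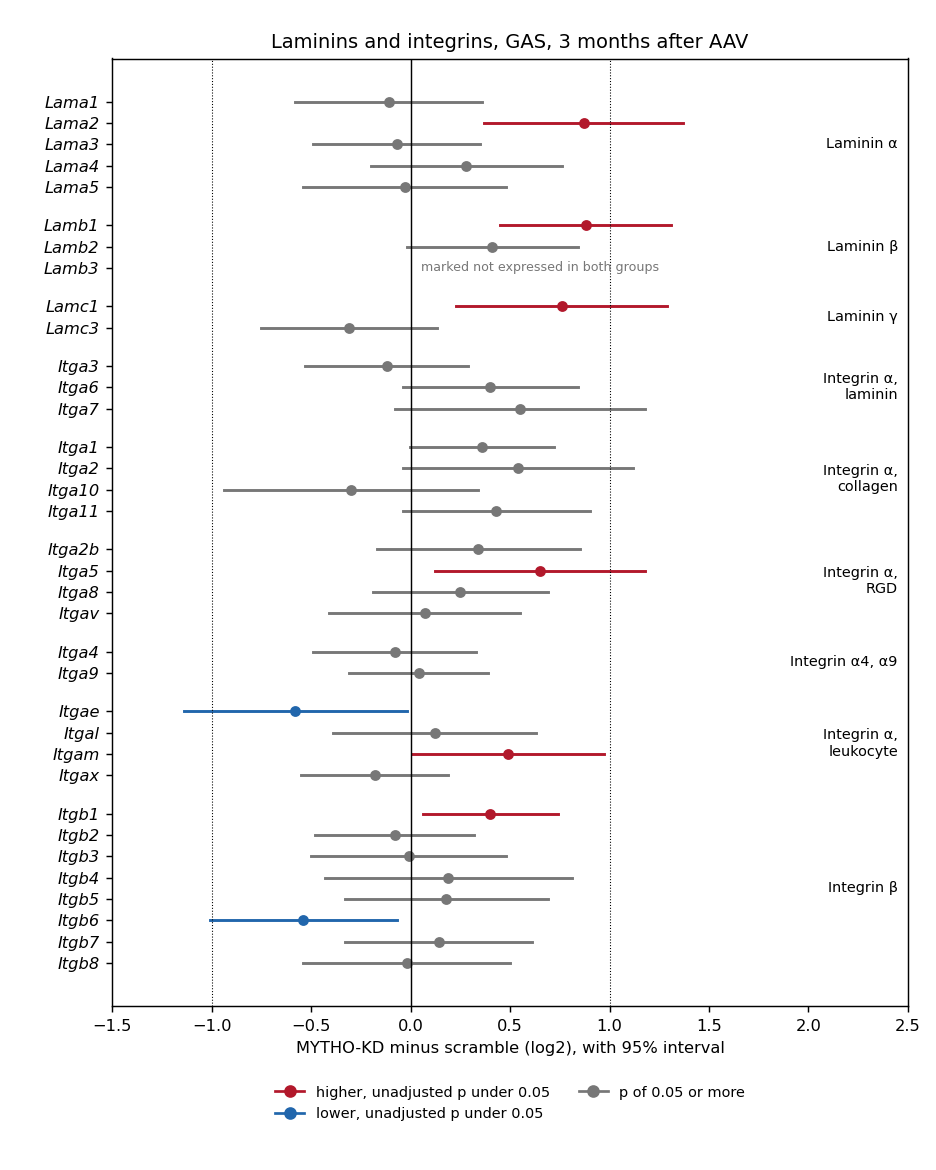
Difference of the deposited averages, MYTHO-KD minus scramble (log2, x axis), for each laminin and integrin gene (y axis, grouped by role). Points are differences, bars are 95% intervals from limma, dotted lines mark 2-fold, red and blue mark unadjusted p under 0.05; *Lama2*, *Lamb1* and *Lamc1* stand farthest to the right at 0.87, 0.88 and 0.76.

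The laminin chains with the largest differences were those that can assemble into a single trimer, the main laminin of the muscle fibre. *Lama2*, which encodes the α2 chain of muscle fibre laminin, averaged 10.07 ± 0.47 in scramble and 10.94 ± 0.20 in MYTHO-KD muscle. The difference was 0.87 (0.37 to 1.37), or 1.83-fold, with adjusted p = 0.153 by limma. The range of 1 SD around the average did not overlap between the groups. *Lamb1*, which encodes the β1 chain, averaged 7.06 ± 0.30 in scramble and 7.94 ± 0.25 in MYTHO-KD muscle, again with ranges apart. Its difference of 0.88 (0.45 to 1.31), or 1.84-fold, had the lowest adjusted p of the 35 members (0.0991 by limma). *Lamc1* encodes the γ1 chain, which most laminins contain. It averaged 9.76 ± 0.46 in scramble and 10.52 ± 0.31 in MYTHO-KD muscle, and the edges of these ranges met. The difference was 0.76 (0.23 to 1.29), or 1.69-fold, with adjusted p = 0.23 by limma. All 3 of these chains kept p under 0.05 in each of the 7 ways the test was run, and in none of them did an adjusted p pass 0.05 (lowest 0.0683, for *Lamb1*). These 7 settings include the main fit and are not independent. Keeping 1 probe set per symbol entry could hardly alter a member, as each has 1 probe set.

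The other laminin chains gave smaller differences. *Lamb2*, whose β2 chain is concentrated at the neuromuscular and myotendinous junctions, averaged 9.98 ± 0.12 and 10.39 ± 0.37, a difference of 0.41 (-0.02 to 0.84, adjusted p = 0.439). *Lama4*, whose α4 chain lies in vessel walls and at the synapse, averaged 10.80 ± 0.38 and 11.08 ± 0.29, a difference of 0.28 (-0.20 to 0.76, adjusted p = 0.681). Neither passed the test, and their intervals leave room for an increase of the size seen for *Lamc1*. *Lama5*, the other synaptic α chain, was at 5.51 ± 0.41 and 5.48 ± 0.33 (difference -0.03, -0.54 to 0.48). *Lama1*, the α chain of early embryonic basement membranes, differed by -0.11 (-0.58 to 0.36). *Lama3*, the α chain of epithelial laminin, differed by -0.07 (-0.49 to 0.35). *Lamc3* had the lowest difference among the laminins, at 6.91 ± 0.33 and 6.60 ± 0.22 (difference -0.31, -0.75 to 0.13, adjusted p = 0.592). *Lamb3*, the epithelial β chain marked as not expressed, was listed at 4.21 in scramble and 4.74 in MYTHO-KD muscle. Over the 9 laminins with signal, 5 were higher and 4 lower, with a median of 0.28.

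The start regions of *Lama2*, *Lamb1* and *Itgb1*, the members whose SD ranges lay apart with p under 0.05, are printed below from RefSeq (GRCm38.p6). They serve to show the sequence near a start of each gene. Each runs 5′ to 3′ on the strand of the gene, from 250 bases before to 50 bases after a transcript start. Capitals mark GGGCGG or its reverse complement CCGCCC, the core of the GC box bound by Sp-family factors. *Lama2* is on the minus strand (chr10:27616893-27617192), *Lamb1* on the plus strand (chr12:31265043-31265342) and *Itgb1* on the plus strand (chr8:128685404-128685703). The transcript start used lay 249 bases inside the outermost edge of the gene for *Lama2*, 147 bases inside it for *Lamb1* and at the edge for *Itgb1*. Nearly all of the *Lama2* window and part of the *Lamb1* window before the start are therefore within the annotated gene.
Lama2: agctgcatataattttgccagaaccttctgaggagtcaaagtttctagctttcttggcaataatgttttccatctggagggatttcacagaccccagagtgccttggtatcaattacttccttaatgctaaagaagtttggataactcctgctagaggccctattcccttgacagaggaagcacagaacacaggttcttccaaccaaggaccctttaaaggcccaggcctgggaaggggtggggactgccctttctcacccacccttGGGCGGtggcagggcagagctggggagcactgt
Lamb1: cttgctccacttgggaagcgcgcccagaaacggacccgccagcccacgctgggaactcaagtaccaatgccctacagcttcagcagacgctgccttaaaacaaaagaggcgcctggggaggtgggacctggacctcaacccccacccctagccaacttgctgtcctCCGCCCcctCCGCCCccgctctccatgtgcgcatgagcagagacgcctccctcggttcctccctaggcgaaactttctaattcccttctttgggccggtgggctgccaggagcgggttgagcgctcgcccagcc
Itgb1: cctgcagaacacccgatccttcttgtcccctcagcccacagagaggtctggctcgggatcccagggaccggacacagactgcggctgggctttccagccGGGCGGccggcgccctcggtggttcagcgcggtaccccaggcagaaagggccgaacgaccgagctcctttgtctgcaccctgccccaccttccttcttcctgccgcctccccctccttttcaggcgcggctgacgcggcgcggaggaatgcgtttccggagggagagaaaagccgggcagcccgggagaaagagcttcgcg
The *Lama2* window held 50.3% G and C with a single CG dinucleotide, while the *Lamb1* window held 63.7% with 18 CG dinucleotides and the *Itgb1* window 67.3% with 27. *Lama2* and *Itgb1* each held the motif at 1 position and *Lamb1* at 2. In the *Lama2* window that position lay after the transcript start. The median over all 32851 RefSeq windows of this length was 52.7% G and C and 7 CG dinucleotides. Of the 35 members, 23 matched an entry, with 26 windows between them. The motif was in 12 of these 26 (46.2%) and in 35.7% of all windows, and a match of letters does not show that a factor binds.

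The main laminin-binding integrins pair an α3, α6 or α7 chain with β1, or α6 with β4. *Itgb1*, the β chain shared by most integrins of muscle, averaged 13.94 ± 0.10 in scramble and 14.34 ± 0.17 in MYTHO-KD muscle, with ranges apart. The difference was 0.40 (0.06 to 0.74), or 1.32-fold, with adjusted p = 0.339 by limma. The SDs of both groups were small. In 6 of the 7 settings the interval excluded 0, and it did not with the standard error widened by 20%, while the adjusted p ran from 0.239 to 0.727. *Itga7*, the main laminin receptor of the muscle fibre, averaged 8.64 ± 0.64 and 9.19 ± 0.29. Its difference of 0.55 (-0.08 to 1.18, adjusted p = 0.478) was larger than that of *Itgb1* but came with the widest scramble SD among the members. *Itga6*, found on satellite cells and vessels, averaged 9.92 ± 0.26 and 10.32 ± 0.32, a difference of 0.40 (-0.04 to 0.84, adjusted p = 0.464). *Itga3* was at 7.82 ± 0.10 and 7.70 ± 0.34 (difference -0.12, -0.53 to 0.29). *Itgb4*, the partner of α6 in hemidesmosomes, was at 6.16 ± 0.21 and 6.35 ± 0.66 (difference 0.19, -0.43 to 0.81). Of these chains of the main laminin receptors, then, only *Itgb1* passed p under 0.05, without adjustment.

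**Figure D2:**
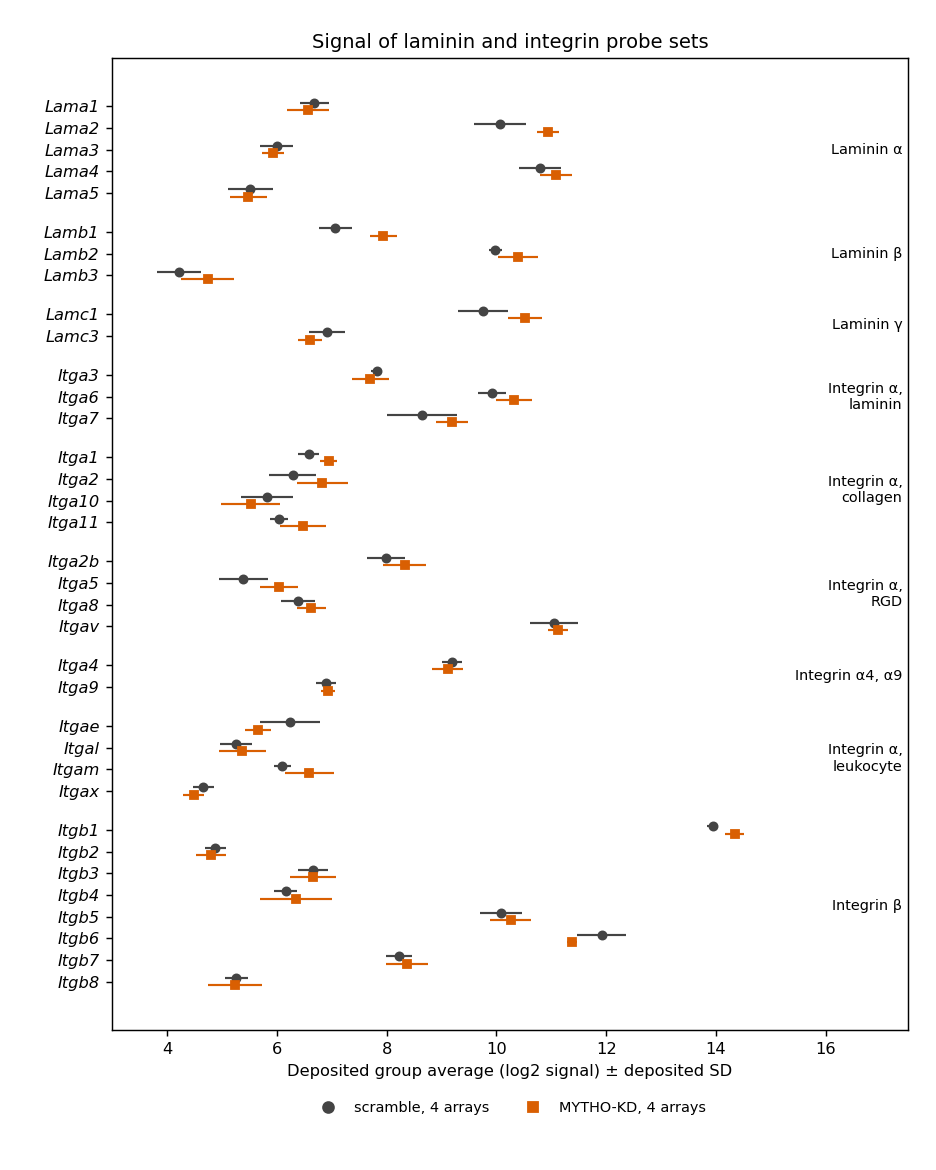
Deposited average log2 signal (x axis) of each laminin and integrin gene (y axis) in scramble (dark circles) and MYTHO-KD (orange squares) muscle, 4 arrays each; bars are the deposited SD. The bars of *Lama2*, *Lamb1*, *Itga1* and *Itgb1* do not overlap between the groups.

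Ranges that lay apart were found for 4 members, all higher in MYTHO-KD muscle (11.4%), against 4.03% of all probe sets higher and 3.96% lower. The fourth of them was *Itga1*, at 6.58 ± 0.19 and 6.94 ± 0.16, which shares its probe set with *Pelo*. It differed by 0.36 (-0.0032 to 0.72, adjusted p = 0.421) and so lay just outside the threshold, which it passed in 3 of the 7 settings. *Itga1* belongs to the collagen-binding α chains, all of which pair with β1. *Itga2*, its neighbour in the genome, was at 6.29 ± 0.43 and 6.83 ± 0.46 (difference 0.54, -0.04 to 1.12, adjusted p = 0.447). *Itga11*, a fibrillar collagen receptor of fibroblasts, was at 6.04 ± 0.16 and 6.47 ± 0.42 (difference 0.43, -0.04 to 0.90, adjusted p = 0.454). *Itga10*, the collagen receptor of cartilage, had the opposite sign, at 5.82 ± 0.47 and 5.52 ± 0.54 (difference -0.30, -0.94 to 0.34). None of the 4 collagen receptors passed the test.

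Among the α chains that recognise the RGD motif of fibronectin and vitronectin, all 4 averages were higher, by 0.07 to 0.65. *Itga5*, the fibronectin receptor chain, averaged 5.39 ± 0.44 in scramble and 6.04 ± 0.34 in MYTHO-KD muscle. The difference was 0.65 (0.12 to 1.18), or 1.57-fold, with adjusted p = 0.318 by limma. The interval excluded 0 in 5 of the 7 settings, not without moderation of the variance nor with unequal variances. *Itga2b*, the platelet fibrinogen receptor chain, differed by 0.34 (-0.17 to 0.85). Platelet markers were lower in 5 of 7 genes (median -0.30), against 51.4% of all probe sets. Only *Gp9* had p under 0.05 (difference -0.68), 14.3% of the list against 5.52% of all probe sets lower. *Itga8* differed by 0.25 (-0.19 to 0.69) and *Itgav* by 0.07 (-0.41 to 0.55). *Itga4* and *Itga9*, whose products bind VCAM1 and tenascin, differed by -0.08 and 0.04.

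The leukocyte α chains split. *Itgam*, the CD11b chain of macrophages and neutrophils, averaged 6.10 ± 0.16 in scramble and 6.59 ± 0.45 in MYTHO-KD muscle. The difference was 0.49 (0.0081 to 0.97), or 1.40-fold, with adjusted p = 0.409 by limma, and its interval excluded 0 in 4 of the 7 settings. *Itgb2*, the CD18 chain that CD11b needs to reach the surface, was at 4.88 ± 0.19 and 4.80 ± 0.27, a difference of -0.08 (-0.48 to 0.32, adjusted p = 0.918). Both *Itgb2* averages were below 5.72, the cutoff of the filter on dim probe sets, so little can be read from this difference. Macrophage markers moved with *Itgam*: 10 of 12 were higher, against 46.9% of all probe sets. Of the 12 markers 6 (50%) were higher with p under 0.05, against 6.48% of all probe sets. Among them were *Cd68* by 2.53 (adjusted p = 0.0182 by limma), *Lyz2* by 1.94 (adjusted p = 0.0277 by limma) and *C1qb* by 1.27 (adjusted p = 0.0754 by limma). Their averages ran from 6.08 to 9.56 in scramble and from 6.01 to 11.11 in MYTHO-KD muscle, and the pan-leukocyte gene *Ptprc* differed by -0.02 (-0.37 to 0.33). Neutrophil markers had a median of -0.21 and none passed. In whole muscle more cells of a type and more RNA per cell cannot be told apart, and the part of these cells in the result was not tested.

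*Itgae*, the αE chain of T cells that lodge in epithelia, was lower, at 6.24 ± 0.55 in scramble and 5.66 ± 0.24 in MYTHO-KD muscle. The difference was -0.58 (-1.14 to -0.02), 0.669 of the scramble signal, with adjusted p = 0.398 by limma, and here too the interval excluded 0 in 4 of the 7 settings. Lymphocyte markers were lower in 8 of 9 genes (median -0.23), against 51.4% of all probe sets. Only *Klrb1c*, a natural killer cell receptor, had p under 0.05 (difference -0.72), 11.1% of the list against 5.52% of all probe sets lower. Averages of the lymphocyte markers ran from 4.34 to 7.82 in scramble and from 4.49 to 7.65 in MYTHO-KD muscle. The part of lymphocytes in the *Itgae* value was not tested. The partner of αE, *Itgb7*, differed by 0.14 (-0.33 to 0.61). *Itgal* and *Itgax*, the CD11a and CD11c chains, differed by 0.12 and -0.18 (-0.39 to 0.63 and -0.55 to 0.19). Their averages in both groups were also below the dim cutoff of 5.72.

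Of the 8 β chains, 4 averages were higher and 4 lower, with a median of 0.06. *Itgb6*, whose αvβ6 dimer activates latent TGF-β in epithelia, was the only β chain that was lower with p under 0.05. It averaged 11.92 ± 0.45 in scramble and 11.38 ± 0.09 in MYTHO-KD muscle, so that the spread was in the scramble group. The difference was -0.54 (-1.01 to -0.07), 0.688 of the scramble signal, with adjusted p = 0.344 by limma, and the interval excluded 0 in 4 of the 7 settings. Of the other β chains that pair with αv, *Itgb3* differed by -0.01, *Itgb5* by 0.18 and *Itgb8* by -0.02. *Itgb1*, which also pairs with αv, was higher by 0.40 (0.06 to 0.74).

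The genes whose products bind laminin or lie beside it in the basement membrane were taken as a list of 15. Of these, 4 (26.7%) were higher with p under 0.05, against 6.48% of all probe sets, and none was lower, against 5.52%, and the median difference was 0.29. *Hspg2*, which encodes perlecan, averaged 9.81 ± 0.54 in scramble and 10.75 ± 0.21 in MYTHO-KD muscle (difference 0.94, 0.39 to 1.49, adjusted p = 0.154). *Nid1*, which encodes the nidogen that bridges the laminin γ1 chain to collagen IV, averaged 10.53 ± 0.43 and 11.36 ± 0.32 (difference 0.83, 0.31 to 1.35, adjusted p = 0.182). Both differences lay near those of *Lama2*, *Lamb1* and *Lamc1*. *Bcam*, a receptor for the α5 chain, differed by 0.60 (adjusted p = 0.32), and *Col15a1*, a collagen of the outer basement membrane, by 0.51 (adjusted p = 0.322). The network collagens *Col4a1* and *Col4a2* differed by 0.16 (adjusted p = 0.801) and 0.39 (adjusted p = 0.444). *Dag1*, the dystroglycan that holds the α2 laminin on the fibre, was at 14.56 ± 0.06 and 14.85 ± 0.31 (difference 0.29, adjusted p = 0.573). The adjusted p-values of the 4 genes lay between 0.154 and 0.322 by limma.

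**Figure D3:**
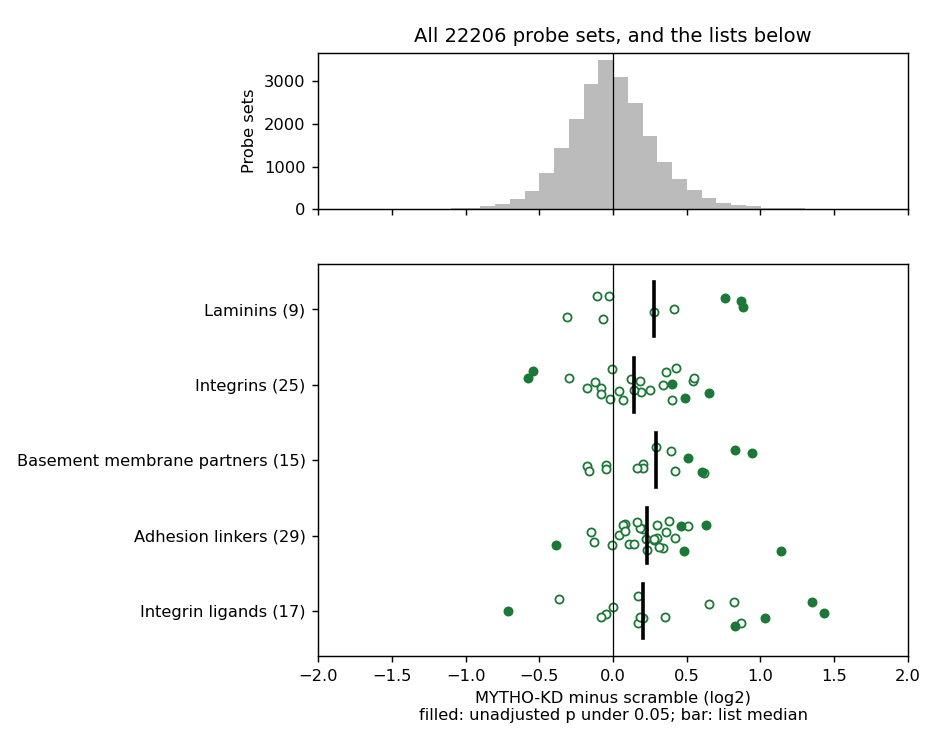
Top, number of probe sets (y axis) by difference between MYTHO-KD and scramble (log2, x axis) for all 22206; bottom, 1 point per gene for the laminins, the integrins and 3 lists of partner genes, with the number of genes in brackets. Filled points have unadjusted p under 0.05 and bars are medians, which lay between 0.14 and 0.29, while the median of all probe sets was -0.01.

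The list of linkers held 29 genes for proteins inside the cell or in its membrane. These proteins link integrins to actin, associate with integrins or relay their signal. Of the genes, 4 (13.8%) were higher and 1 (3.45%) lower with p under 0.05, against 6.48% and 5.52% of all probe sets. Of the 29 averages 25 were higher (median 0.23), against 46.9% of all probe sets. *Flnc*, the filamin of the sarcomere and the membrane, showed the largest difference. It averaged 9.80 ± 0.38 in scramble and 10.94 ± 0.38 in MYTHO-KD muscle, higher by 1.14 (0.62 to 1.66) or 2.20-fold, with adjusted p = 0.0776 by limma. *Flna* differed by 0.63 (adjusted p = 0.208), *Lims1*, the PINCH adaptor, by 0.46 (adjusted p = 0.373) and the kinase *Src* by 0.48 (adjusted p = 0.353). The signal of *Src* was low, at 4.38 ± 0.31 and 4.86 ± 0.22, and the filter on dim probe sets (cutoff 5.72) removed it. *Cd151*, the tetraspanin that associates with laminin-binding integrins, was lower, at 12.64 ± 0.16 and 12.25 ± 0.17 (difference -0.39, adjusted p = 0.373). Talin, vinculin and integrin-linked kinase, at the core of the adhesion, had intervals that included 0: *Tln1* differed by -0.15 (-0.65 to 0.35), *Vcl* by 0.08 (-0.33 to 0.49) and *Ilk* by 0.18 (-0.20 to 0.56).

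Matrix and cell surface ligands of the other integrins, 17 genes, gave 4 higher (23.5%) and 1 lower (5.88%) with p under 0.05. The shares of all probe sets were 6.48% and 5.52%. All that passed encode matrix proteins. The cell surface ligands *Icam1*, *Icam2*, *Vcam1*, *Madcam1*, *Cdh1* and *Adam9* did not pass. Neither did the other matrix ligands of the list, *Vtn*, *Spp1*, *Tnc*, *Thbs1*, *Col1a1* and *Col6a1*. Of the higher ones 3 passed 2-fold, against 0.86% of all probe sets. *Col3a1*, a fibrillar collagen, averaged 9.76 in scramble and 11.19 in MYTHO-KD muscle (difference 1.43, adjusted p = 0.102). *Fn1*, the ligand of the α5 chain, averaged 9.44 ± 0.53 and 10.79 ± 0.77 (difference 1.35, adjusted p = 0.154), and *Fbn1* differed by 1.03 (adjusted p = 0.246). These exceeded every laminin and integrin in size. *Postn* differed by 0.83 (adjusted p = 0.169). *Npnt*, nephronectin, a ligand of the α8 chain, was lower, at 9.12 ± 0.44 and 8.41 ± 0.38 (difference -0.71, adjusted p = 0.283). None of the 17 passed adjustment (lowest adjusted p = 0.102 by limma).

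Laminin and integrin transcripts come from many cells of the muscle, so marker lists were read beside them. Of all probe sets, 6.48% were higher and 5.52% lower with p under 0.05, and 46.9% of averages were higher. All 8 fibroblast markers were higher (median 0.69), 4 of them (50%) with p under 0.05. Their averages ran from 6.89 to 16.58 in scramble and from 7.07 to 16.86 in MYTHO-KD muscle. *Lum*, a proteoglycan of fibroblasts, was higher by 1.49 (adjusted p = 0.0443 by limma), *Pi16* by 1.14 and *Cd34* by 0.65. All 9 endothelial markers were higher too (median 0.34), 2 of them (22.2%) with p under 0.05. Their averages ran from 6.31 to 12.85 in scramble and from 6.65 to 13.22 in MYTHO-KD muscle. The receptors *Kdr* and *Eng* were higher by 0.75 and 0.64. Of 8 satellite and regenerating fibre markers 5 were higher and 2 lower, with 2 (25%) higher at p under 0.05. The median was 0.18 (0.19 without *Myh8*, which stood at the highest average in the table in both groups). *Mymk* (listed as *Tmem8c*), needed for myoblast fusion, was higher by 1.77 (adjusted p = 0.0749 by limma). Embryonic myosin *Myh3* was higher by 1.27 (adjusted p = 0.366 by limma). *Myod1*, with the next lowest p, had the opposite sign (difference -0.40, -0.95 to 0.15). Schwann cell, smooth muscle and pericyte, and dendritic cell markers gave no gene with p under 0.05, with medians of -0.17, 0.12 and -0.15. Of the markers and ligands, *S100a8*, *Flt3* and *Madcam1* were marked as not expressed in MYTHO-KD muscle only. Of 12 muscle fibre markers 3 (25%) were higher at p under 0.05, *Mb* (0.93), *Myh1* (0.59) and *Myh2* (0.41). In the lower direction it was 1 (8.33%), *Ryr1* (-0.39), against 5.52% of all probe sets. Another 3, *Acta1*, *Myh4* and *Atp2a1*, stood at 19.93 with an SD of 0 in both groups, the highest average in the table, so that no difference could be read from them. The median was -0.02 with these and -0.05 without them. Other markers of this list lay close to the same limit, among them *Myh2* (19.91 ± 0.01) and *Mb* (19.75 ± 0.34) in MYTHO-KD muscle. The differences and SDs of *Myh2* and *Mb* can be narrowed by that limit, which was not tested. The part of these cell types in the values of *Lama2*, *Lamb1*, *Lamc1* and the other members was not tested.

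**Figure D4:**
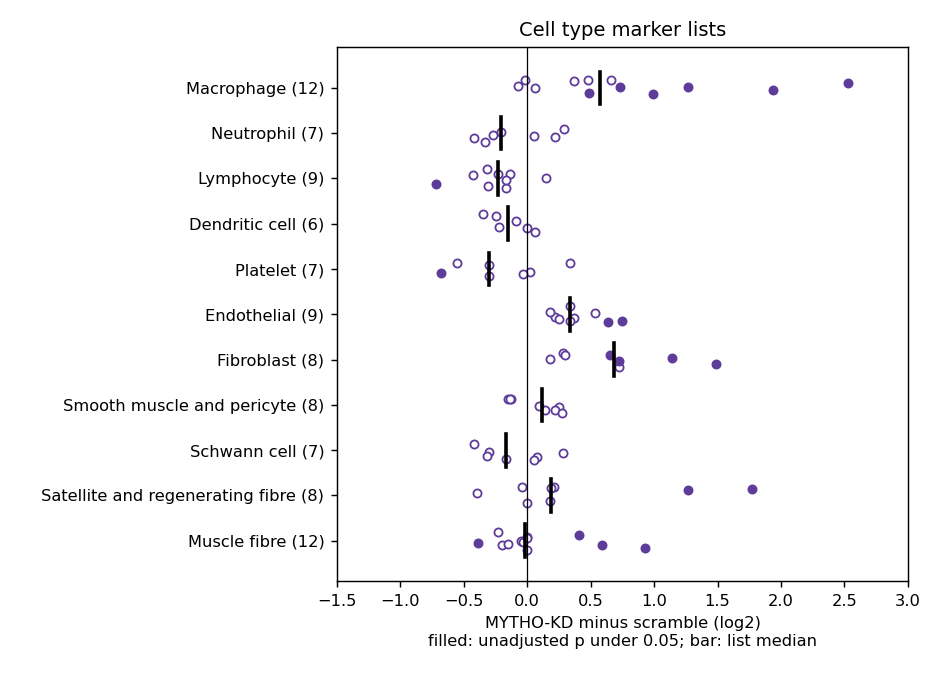
Difference between MYTHO-KD and scramble muscle (log2, x axis) for marker genes of each cell type (y axis, number of genes in brackets). Each point is a gene, filled with unadjusted p under 0.05, and bars are medians, from 0.69 for fibroblast and 0.57 for macrophage markers to -0.30 for platelet markers.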

How the data were processed

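Whole GAS muscles were profiled on Clariom S Mouse arrays. According to the study's methods the signals were summarised by SST-RMA in Transcriptome Analysis Console; the labels name Affymetrix Expression Console, RMA and the build mm10. The deposited table holds, per probe set, the authors' average log2 signal, SD and expressed call of each group (4 arrays each), and 0 columns of single arrays; the kind of average is not stated. Its columns of the authors' own fold changes, p-values and FDR were not used. As the methods describe injection of 1 leg per virus, the 4 muscles of a group should come from 4 mice, and legs of a mouse are not independent; which muscles share a mouse is not given in the sources used here.

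From the averages and SDs, limma (3.58.1, R 4.3.3) moderated variances with 6 residual degrees of freedom (prior SD 0.284, prior degrees of freedom 5.85), two-sided, without filter, adjusted over 22206 probe sets. The planned fit on single arrays could not be made, so legs could not be paired. The number of arrays limits the precision. The code was tested on simulated data. Alternatives were no moderation, a trend, unequal variances, a standard error widened by 20%, a filter on dim probe sets, 1 probe set per symbol entry and a 1.5-fold threshold. Averages, SD and interval are given for members with p under 0.05 and for listed laminins and laminin receptors of muscle; of each partner list the 5 genes with the lowest p are named, and of marker lists up to 3 and those marked not expressed. Other genes are given by difference. *Itga1*, *Col4a5*, *Tln1*, *Vcl*, *Ilk*, *Dag1*, *Col4a1*, *Myh2*, *Myh8*, *Acta1*, *Myh4*, *Atp2a1* and *Ptprc* were chosen after their values were seen. Members and lists were chosen with earlier results of these data known; 1 gene of the basement membrane list is not reported here and was left out of its counts. Gene positions and start regions are RefSeq (GRCm38.p6).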

Additional observations from a re-analysis of the deposited data

How the results depend on the processing

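No paired analysis was possible because the table holds group averages, not single arrays, and for the same reason no array could be left out. Of the 30 members and partner genes named by rule, 11 lost p under 0.05 in at least 1 setting and 0 reversed. The other 19 kept their side of the unadjusted threshold in every setting run. Of these, *Lama4*, *Lama5*, *Lamb2*, *Itga3*, *Itga6*, *Itga7*, *Itgb4* and *Col4a2* never had p under 0.05. Those that kept p under 0.05 throughout were *Lama2*, *Lamb1*, *Lamc1*, *Hspg2*, *Nid1*, *Col15a1*, *Flnc*, *Flna*, *Col3a1*, *Fn1* and *Postn*. *Itga1*, named after its values were seen, passed the threshold in 3 of 7. *D230025D16Rik*, with a difference of -2.31, missed the adjusted threshold without moderation (adjusted p = 0.173), with unequal variances (0.363) and with the standard error widened by 20% (0.0804), in a range of 0.00249 to 0.363 over all settings. The count of lower members went from 2 to 0 in each of these 3 settings, where *Itgae* and *Itgb6* missed p under 0.05. Taking 1.5-fold in place of 2-fold raised the count of higher members past fold and p from 0 to 4. Among basement membrane partners 1 gene, *Col4a5* (-0.18), was lower without moderation and with unequal variances, where there had been 0. With the standard error widened, the linkers had 2 higher genes in place of 4 and 0 lower in place of 1. The ligands had 0 lower genes in place of 1 without moderation and with unequal variances. The deposited SDs rest on 4 arrays and, if the averages are robust ones, p-values can be too low, by an amount that was not tested.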

Other observations

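Some members share genomic space with another gene. A protein-coding gene overlaps 5 of the 35: *Pelo* lies in *Itga1*, *Cerkl* overlaps *Itga4*, *Mettl7b* overlaps *Itga7*, *Haspin* overlaps *Itgae* and *Galk1* overlaps *Itgb4*. Only for *Itga1* does the probe set name the second gene. The closest pairs of members are *Itgam* and *Itgax* on chromosome 7, 11034 bases apart, and *Itga2* and *Itga1* on chromosome 13, 25978 bases apart. *Itgam* and *Itgax* differed by 0.49 and -0.18, in opposite directions, and *Itga2* and *Itga1* by 0.54 and 0.36, in the same direction.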
